A study of Mus musculus with 11 samples.

Results

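The collagen gene family was taken as every gene of the array annotation whose symbol is Col, a number, the letter a and a number. This rule found 44 genes among the 23185 genes tested, and used no measured value. They comprise 11 fibrillar collagens, 8 basement membrane collagens (the 6 type IV chains, Col15a1 and Col18a1) and 25 other collagens. Expression was measured on 11 mouse liver samples, each a sorted cell fraction on 1 Affymetrix MoGene 2.0 ST array, a 1-colour array that reads whole transcripts. The values are log2 expression values as deposited, and a difference of 1 on this scale is a doubling.

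Groups were 3 arrays of YFP+ cells from mice on the DDC diet, 3 of YFP+ cells from mice on the CDE diet, 2 of YFP+ cells from untreated mice (UTR), and 3 of YFP- cells. The titles of the YFP- arrays name no diet, and these cells were taken as from untreated mice. In this field DDC usually stands for diethoxycarbonyl-dihydrocollidine and CDE for choline-deficient, ethionine-supplemented; both are diets that injure the liver. DDC feeding lasted 5 weeks and the protocol speaks of 4 DDC mice; the duration of the CDE diet was not given in the sources used here. YFP is a lineage label, and the title of the series places the lineage in the biliary epithelium, but the promoter that drives the label was not given in the sources used here. Livers were digested with collagenase and pronase, non-parenchymal cells were taken, dead cells were left out, and the gate was set on mice without the label. The labels are silent on whether replicate arrays are different mice, so p-values reflect the spread between arrays, which may be technical. Fewer cells of a type and less RNA per cell cannot be told apart in such bulk samples.

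Collagens are secreted proteins whose chains wind into triple helices. Fibrillar collagens (types I, III and V among them) form the banded fibres of scar and portal tract and in liver are made mainly by stellate cells and portal fibroblasts. Type IV collagen forms the sheet-like network of basement membranes, which lie under bile duct epithelium and around vessels, and type XVIII collagen is a basement membrane proteoglycan whose end fragment is endostatin. Other members coat fibrils, form beaded filaments, anchor epithelia or span the cell membrane.

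The arrays fell into 2 sets. YFP+ arrays correlated with each other at 0.980 to 0.991 over all genes (28 pairs), YFP- arrays with each other at 0.888 to 0.925 (3 pairs). The mean of the biliary epithelium marker list (5 genes measured, Krt19 and Epcam among them) lay between 10.44 and 10.79 on the 8 YFP+ arrays, against 8.31, 5.75 and 5.10 on the YFP- arrays. The liver endothelium list (9 genes) averaged 5.03 to 5.84 on YFP+ arrays, against 11.71, 10.03 and 10.41 on YFP- arrays, and the leukocyte list (7 genes) 4.85 to 5.52 on YFP+ arrays, against 7.67, 10.79 and 8.20. The hepatocyte list (6 genes) ran from 8.17 to 9.03 on YFP+ arrays and was 8.40, 8.23 and 9.01 on YFP- arrays. YFP- replicate 1 stood apart from the other YFP- arrays in its collagens and in several marker lists, as described further on, and results that rest on it are given with and without it.

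**Figure D1:**
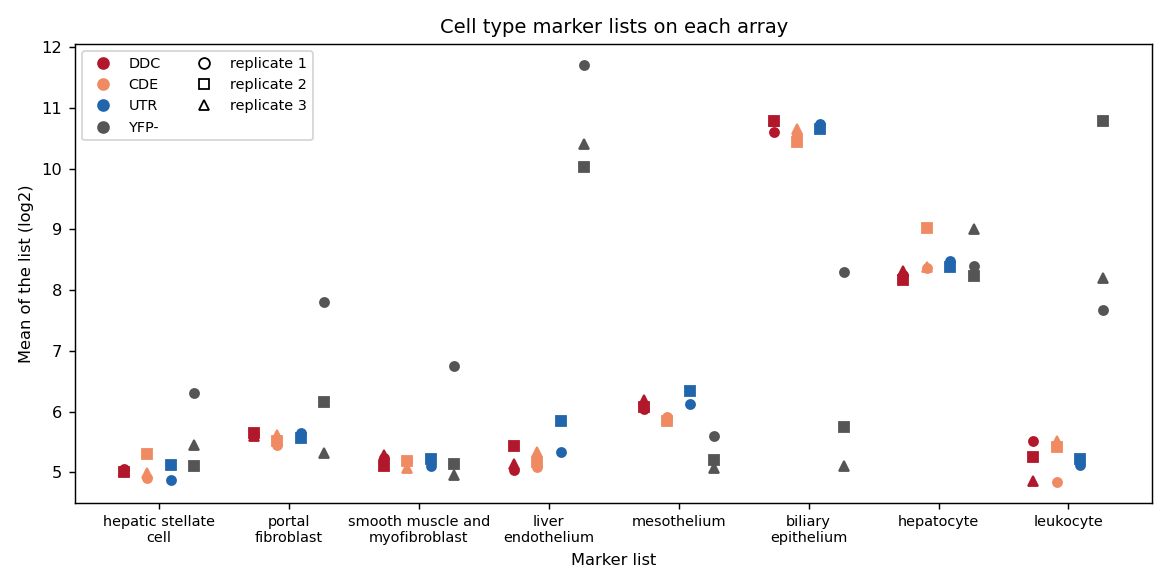
Mean log2 expression of each cell type marker list (vertical axis) on every array, with lists along the horizontal axis, groups by colour and replicate number by symbol. YFP+ arrays lie at 10.44 to 10.79 for biliary epithelium, and YFP- replicate 1 is the highest array for hepatic stellate cell (6.31), portal fibroblast (7.80) and smooth muscle and myofibroblast (6.76) markers.

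Collagens passed the background level in a share near that of all genes. Background was set on each array at the 95th percentile of 1065 olfactory receptor genes, which are not thought to be used in liver, and averaged 5.32 in DDC, 5.29 in CDE, 5.26 in UTR and 5.26 in YFP-. The group mean passed this level in at least 1 group for 31 of 44 collagens, against 62.9% of all genes: 8 of 11 fibrillar, 7 of 8 basement membrane and 16 of 25 other collagens. The 13 that never passed it were Col15a1, Col11a1, Col24a1, Col5a2, Col12a1, Col19a1, Col22a1, Col9a1, Col8a2, Col28a1, Col25a1, Col6a4 and Col6a5. By group, 28 collagens passed in DDC, where 56.3% of all genes did, 27 in CDE (56.2%), 27 in UTR (56.8%) and 27 in YFP- (57.7%).

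For the collagens at least 1 log2 unit over background, no share of all genes was computed. In UTR they were 8: Col18a1, Col4a1, Col4a2, Col4a5, Col27a1, Col16a1, Col9a2 and Col26a1. CDE added Col9a3 to this set and DDC added Col4a6, giving 9 collagens each. In YFP- cells they were 7: Col4a1, Col4a2, Col1a2, Col27a1, Col3a1, Col9a2 and Col26a1. Without YFP- replicate 1 they were 5, Col1a2 and Col3a1 falling out at 0.67 and 0.43 log2 units over background, and 21 collagens in place of 27 passed the background level. The share of all genes passing it was not computed without that array. Type I and type III collagen, the main chains of scar, had group means less than 1 log2 unit over background in YFP+ cells. Col1a1 was at 5.54 in DDC, 5.64 in CDE and 5.53 in UTR, and Col3a1 at 5.58 in DDC, 5.53 in CDE and 5.56 in UTR. Col1a2 lay further over background, at 5.84 in DDC, 5.85 in CDE and 5.78 in UTR. These means were 0.52, 0.57 and 0.52 log2 units over it.

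The collagens called between untreated YFP+ cells and YFP- cells came from the basement membrane class (3 of 8) and the other collagens (2 of 25). Of 44 collagens 5 passed the threshold of an adjusted p of 0.05 in limma, all 5 higher in UTR: Col18a1, Col4a5 and Col4a6 of the basement membrane class, and Col9a3 and Col16a1 of the fibril-associated collagens, which sit on the surface of other fibres. None of the 11 fibrillar collagens passed. Over all genes 18.9% passed, 10.4% higher and 8.46% lower, so the share of collagens called is below that of all genes. At an unadjusted p of 0.05 the count was 12 of 44, against 31.5% of all genes. Arrays did not overlap for 13 collagens higher in UTR, against 22.5% of all genes, and for 4 lower in UTR (Col1a2, Col3a1, Col10a1 and Col13a1), against 20.5%. The median difference was 0.34 over the basement membrane class, 0.12 over the fibrillar class and 0.01 over the others; over all 44 it was 0.06, beside -0.01 over all genes.

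**Figure D2:**
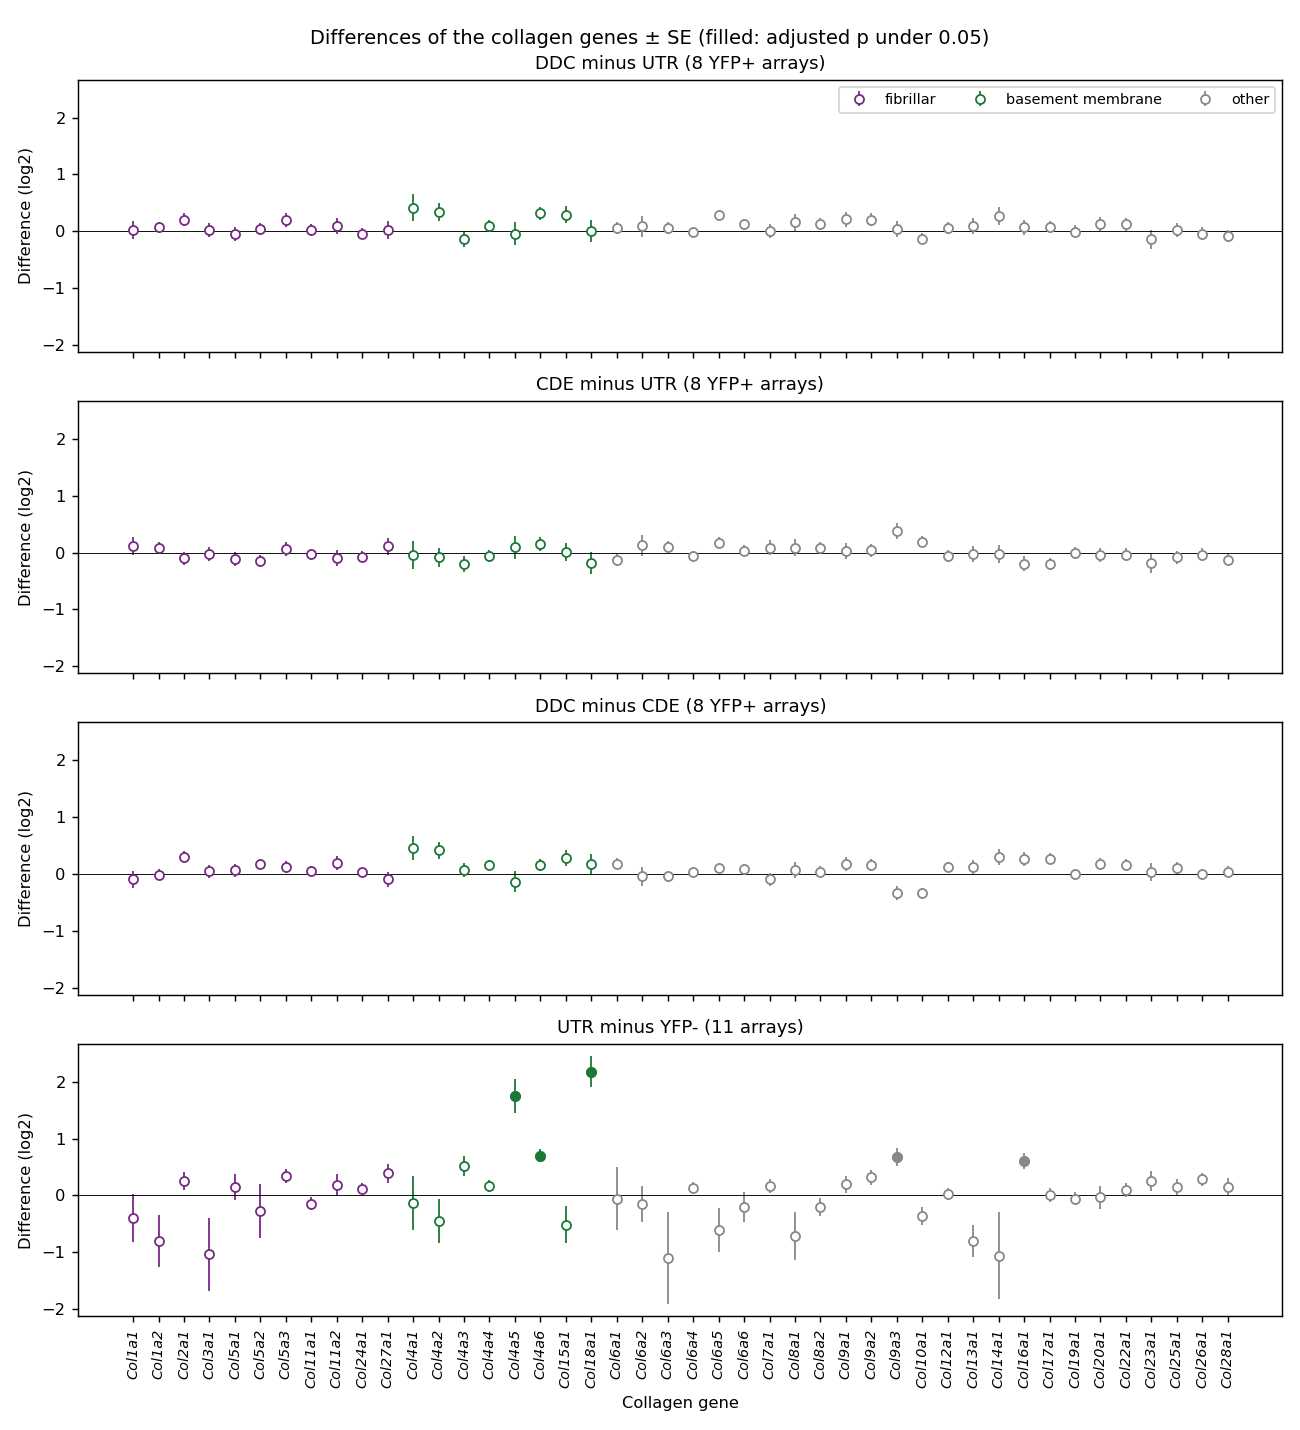
Difference in log2 expression ± SE of the fit (vertical axis) for each of the 44 collagens (horizontal axis), coloured by class, in the 4 comparisons; filled points have an adjusted p under 0.05. The filled points are Col4a5, Col4a6, Col18a1, Col9a3 and Col16a1 in UTR minus YFP-, and the panels of the diet comparisons hold no filled point, with all 44 differences between -0.33 and 0.46.

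Col18a1, the chain of type XVIII collagen, was read at 8.11, 8.71 and 8.24 in DDC, 8.01, 8.11 and 8.38 in CDE, 8.48 and 8.21 in UTR, and 6.66, 6.09 and 5.75 in YFP-. All 8 YFP+ arrays lay above all 3 YFP- arrays, and the YFP+ groups overlapped each other. UTR exceeded YFP- by 2.18 ± 0.27 (SE), a 4.53-fold difference, with an adjusted p of 0.000728 in limma. Col18a1 also passed in each alternative fit, at adjusted p-values of 8.9e-05 to 0.041.

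Type IV collagen genes lie in head-to-head pairs, the genes of a pair running in opposite directions from neighbouring start regions. In the RefSeq annotation of GRCm38.p6 the Col4a1 and Col4a2 records overlap by 85 bases on chromosome 8, those of Col4a4 and Col4a3 by 114 bases on chromosome 1, and the nearest ends of Col4a6 and Col4a5 lie 1274 bases apart on chromosome X. A stretch of 30 bases from the start region of each gene of the first and last pair is shown because both genes of the last pair passed in UTR minus YFP- and neither of the first pair did. Capitals mark a GC box, GGGCGG or its reverse complement CCGCCC, the motif of Sp-family factors, and each run reads 5′ to 3′ on the strand of its gene.
Col4a1, minus strand, chr8:11312800-11312829: cccttggagacgCCGCCCgcgcactgccga
Col4a2, plus strand, chr8:11312800-11312829: tcggcagtgcgcGGGCGGcgtctccaaggg
Col4a5, plus strand, chrX:141475377-141475406: ccagcggggaggGGGCGGtgcagggaagag
Col4a6, minus strand, chrX:141474080-141474109: cagcaggcagccCCGCCCcgtccccctcca
The Col4a1 and Col4a2 runs are the same genomic bases read from opposite strands, so this box lies in the start windows of both genes. The window of Col4a2 holds 3 boxes, those of Col4a1, Col4a5 and Col4a6 hold 1 each, and that of Col4a4 holds 0. On either strand the box occurred in the windows (250 bases before to 50 after the start) of 22 of the 35 collagens with a window in the RefSeq table, and of 38.2% of all 27025 genes there. A match of these letters is not a binding site.

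Col4a5, a chain that in basement membranes assembles with the products of Col4a3 and Col4a4 or with that of Col4a6, was at 6.39, 6.90 and 6.95 in DDC, 6.95, 6.61 and 7.09 in CDE, 6.68 and 6.90 in UTR, and 5.61, 4.52 and 5.01 in YFP-. Every YFP+ array lay above every YFP- array, whose mean was under background. YFP- replicate 1 (5.61) alone lay above the background level of its own array (5.15). Set against the background level, the UTR mean of Col4a5 was at least 2.89-fold higher than the YFP- mean. The fitted difference was 1.75 ± 0.30 (adjusted p = 0.00373 in limma). Its neighbour Col4a6 was at 6.37, 6.15 and 6.50 in DDC, 6.16, 6.23 and 6.15 in CDE, 6.07 and 5.98 in UTR, and 5.36, 5.36 and 5.26 in YFP-. Again no YFP- array reached a YFP+ array, and UTR exceeded YFP- by 0.70 ± 0.12 (adjusted p = 0.00339 in limma).

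Col4a3, the partner of Col4a5 and Col4a4 in the network of kidney and lung basement membranes, stayed near background. It read 5.44, 5.39 and 5.65 in DDC, 5.53, 5.31 and 5.44 in CDE, 5.47 and 5.79 in UTR, and 5.39, 5.09 and 4.84 in YFP-. The 2 UTR arrays lay above the 3 YFP- arrays, while YFP- replicate 1 fell within the range of the CDE arrays. The difference of 0.52 ± 0.18 did not pass (adjusted p = 0.074 in limma), and Col4a4 differed by 0.16 ± 0.11 (adjusted p = 0.352).

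Col4a1 and Col4a2, the chains of the type IV collagen found in nearly all basement membranes, were well above background in both fractions. Col4a1 measured 7.72, 8.26 and 7.99 in DDC, 7.38, 7.29 and 7.92 in CDE, 7.83 and 7.31 in UTR, and 8.83, 7.27 and 7.00 in YFP-. Col4a2 measured 6.58, 7.04 and 6.61 in DDC, 6.19, 6.28 and 6.51 in CDE, 6.47 and 6.35 in UTR, and 7.79, 6.28 and 6.51 in YFP-. For both genes YFP- replicate 1 was the highest of all 11 arrays. In Col4a1 YFP- replicates 2 and 3 lay below all YFP+ arrays, replicate 2 (7.27) only just under the lowest of them (7.29). In Col4a2 replicate 2 lay below and replicate 3 above both UTR arrays. UTR minus YFP- was -0.13 ± 0.48 for Col4a1 (adjusted p = 0.885 in limma) and -0.45 ± 0.38 for Col4a2 (adjusted p = 0.465). Without YFP- replicate 1 these differences were 0.43 and 0.01.

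**Figure D3:**
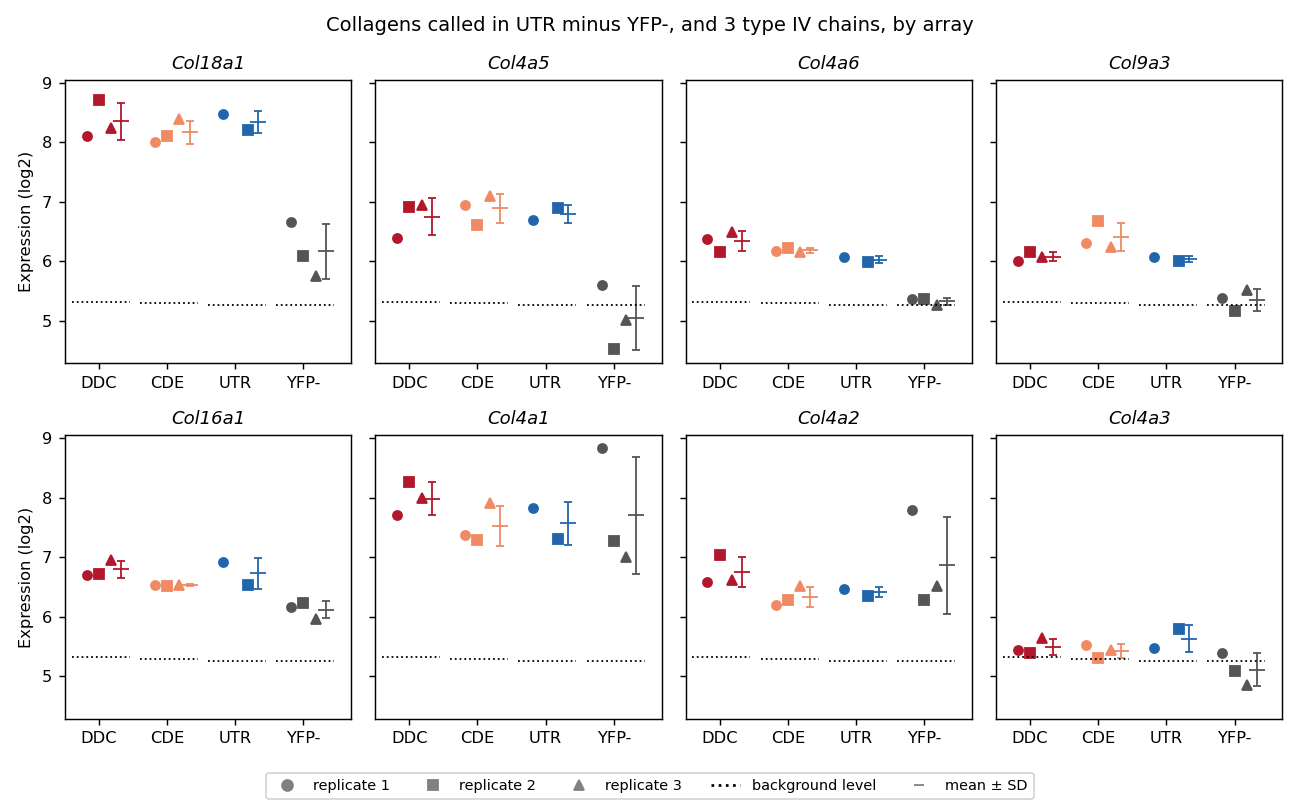
Log2 expression (vertical axis) of the 5 collagens called in UTR minus YFP- and of Col4a1, Col4a2 and Col4a3 on each array, by group; symbols give the replicate number, bars the mean ± SD, and dotted lines the background level. In Col18a1 and Col4a5 all YFP- arrays lie below all YFP+ arrays, while in Col4a1 and Col4a2 YFP- replicate 1 (8.83 and 7.79) is the highest array.

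Col9a3, a chain of the fibril-associated type IX collagen known best from cartilage, was at 6.00, 6.15 and 6.07 in DDC, 6.31, 6.68 and 6.23 in CDE, 6.06 and 6.00 in UTR, and 5.37, 5.15 and 5.51 in YFP-. All YFP+ arrays lay above the YFP- arrays, and the CDE arrays above all other groups. UTR exceeded YFP- by 0.68 ± 0.16 (adjusted p = 0.0156 in limma). Col16a1, a fibril-associated collagen of many connective tissues, was at 6.71, 6.72 and 6.96 in DDC, 6.54, 6.52 and 6.54 in CDE, 6.92 and 6.54 in UTR, and 6.17, 6.23 and 5.96 in YFP-. Here too the YFP+ and YFP- arrays did not overlap, and UTR exceeded YFP- by 0.61 ± 0.14 (adjusted p = 0.0175 in limma).

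With array weights, which give the YFP- arrays a spread of their own, Col18a1, Col4a5 and Col4a6 passed. With the 5 UTR and YFP- arrays alone, a fit with fewer residual degrees of freedom, only Col18a1 passed (adjusted p = 0.041 in limma), with adjusted p-values of 0.0708 for Col4a5, 0.0602 for Col4a6, 0.0955 for Col9a3 and 0.153 for Col16a1; Col9a3 also missed the threshold without UTR replicate 1 (0.101) or 2 (0.0759), and Col16a1 without UTR replicate 1 (0.162). Beside these differences, 5 of 5 biliary markers were higher in UTR, 9 of 9 endothelial and 4 of 7 leukocyte markers were lower, and their part in the collagen differences was not tested.

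Several fibrillar and other collagens were high on a single array, YFP- replicate 1. There 10 of 44 collagens lay at least 1 log2 unit above the highest of the 8 YFP+ arrays, against 5.78% of all genes. On YFP- replicates 2 and 3 it was 0 of 44, although 8.09% and 6.88% of all genes did so. The 10 were 4 fibrillar collagens (Col1a1, Col1a2, Col3a1 and Col5a2) and 6 others (Col6a1, Col6a3, Col6a5, Col8a1, Col13a1 and Col14a1), with none from the basement membrane class. On the same array 15 of 44 collagens lay below all 8 YFP+ arrays, 5 of them fibrillar. On YFP- replicates 2 and 3 more did, 24 (7 fibrillar) and 17 (4 fibrillar). The share of all genes below all 8 YFP+ arrays was not computed, so the counts of collagens below them cannot be set against other genes. YFP- replicate 1 was singled out after its values were seen.

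Col3a1, the type III chain of reticular fibres, was at 5.62, 5.62 and 5.50 in DDC, 5.45, 5.39 and 5.77 in CDE, 5.58 and 5.54 in UTR, and 8.31, 5.65 and 5.84 in YFP-. Its partner in fibres Col1a2 was at 5.73, 5.85 and 5.94 in DDC, 5.81, 5.90 and 5.85 in CDE, 5.71 and 5.84 in UTR, and 7.76, 5.85 and 6.12 in YFP-. Col1a1, the other type I chain, reached 6.98 on YFP- replicate 1, against 5.24 and 5.56 on replicates 2 and 3 and 5.34 to 5.95 on YFP+ arrays. In these fibrillar genes YFP- replicates 2 and 3 lay within or close to the YFP+ range and replicate 1 lay more than 1 log2 unit above it.

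Chains of type VI collagen, which forms beaded filaments around cells, and Col14a1, a fibril-associated collagen of dense connective tissue, were among these. Of the 6 type VI chains, Col6a1, Col6a3 and Col6a5 lay more than 1 log2 unit above the YFP+ arrays on replicate 1, Col6a2 and Col6a6 lay above them by 0.40 and 0.62, and Col6a4 did not exceed them. Col6a3 was at 4.95, 4.88 and 4.83 in DDC, 4.83, 5.08 and 4.89 in CDE, 4.77 and 4.88 in UTR, and 8.10, 4.86 and 4.82 in YFP-. Col14a1 was at 5.29, 5.59 and 5.27 in DDC, 4.94, 4.98 and 5.35 in CDE, 5.20 and 5.04 in UTR, and 8.20, 4.90 and 5.44 in YFP-. For both genes replicate 1 alone stood out, by 3.02 log2 units above the highest YFP+ array in Col6a3. Col6a1 differed from these, since YFP- replicates 2 and 3 (5.38 and 5.57) lay below all YFP+ arrays (5.90 to 6.26) and replicate 1 (7.67) above them.

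None of the 10 passed in UTR minus YFP- (adjusted p 0.0801 to 0.956 in limma), with differences of -1.10 to -0.06 and an SE of up to 0.81 in Col6a3. Without YFP- replicate 1 the differences of these 10 ran from -0.48 to 0.67. Over the family 7 of 44 collagens then passed, all higher, where 5817 of 23185 genes passed, against 4373 with all 11 arrays. Newly called were Col6a1, higher in UTR by 0.67 (adjusted p = 0.00432 in limma), and Col4a3, higher by 0.66 (adjusted p = 0.0172). Without YFP- replicate 2 Col10a1 passed as lower in UTR, with a difference of -0.52 (adjusted p = 0.0105), and without replicate 3 so did Col13a1, one of the 10, with -1.03 (adjusted p = 0.0259). Over the family, leaving out YFP- replicate 1 moved the median to 0.15, beside -0.02 over all genes. Then 31 of 44 differences were positive, and the share of all genes was not computed for this fit. With all 11 arrays 24 of 44 were positive, beside 49.1% of all genes.

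The same array carried other mesenchymal markers. The portal fibroblast list averaged 7.80 on YFP- replicate 1, with 9 of 10 genes above background, against 6.16 and 5.31 on replicates 2 and 3 and 5.45 to 5.65 on YFP+ arrays. The stellate cell list averaged 6.31 there (9 of 11 above background) against 5.10 and 5.45, and the smooth muscle list 6.76 (4 of 5) against 5.14 and 4.96. On replicates 2 and 3, 5 and 4 portal fibroblast, 2 and 3 stellate and 2 and 2 smooth muscle genes were above background. Not every member was raised on replicate 1. Lhx2 read 5.24 there, against 5.47 and 5.52 on replicates 2 and 3, and Thy1 8.83, against 11.94 on replicate 2. Entpd2 (7.34) lay below all YFP+ arrays. Pdgfra, a receptor of fibroblasts and stellate cells, read 8.50 on replicate 1, against 4.11 and 4.51 on replicates 2 and 3. Lrat, the retinol esterifying enzyme of stellate cells, read 5.74 there, against 4.88 and 5.94. Biliary markers averaged 8.31 there, with Krt19 at 8.28. Their part in the collagen values was not tested.

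**Figure D4:**
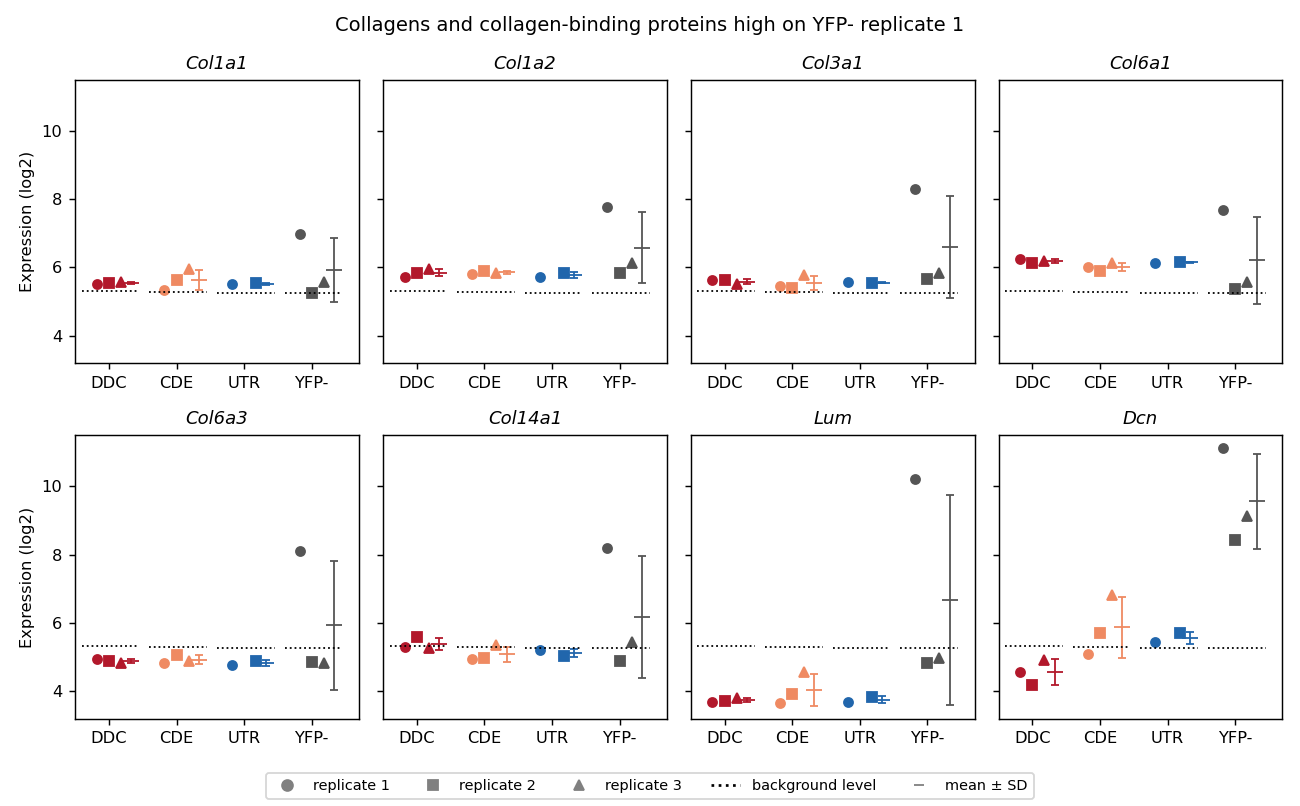
Log2 expression (vertical axis) of Col1a1, Col1a2, Col3a1, Col6a1, Col6a3 and Col14a1 and of the collagen-binding proteoglycans Lum and Dcn on each array, by group, with symbols, bars and dotted lines for replicate number, mean ± SD and background level. YFP- replicate 1 stands above all other arrays in each gene, at 8.31 for Col3a1, 8.10 for Col6a3 and 10.21 for Lum.

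The CDE diet left the collagens of YFP+ cells within 0.5 log2 units of UTR. None of 44 passed in CDE minus UTR, and none of 23185 genes did (0.0%; 46 genes without UTR replicate 1, none of them collagens), with a lowest adjusted p of 0.717 among collagens in limma. All differences lay between -0.21 and 0.38 with SEs of 0.09 to 0.24, and the median was -0.03, beside 0.00 over all genes. At an unadjusted p of 0.05 only Col9a3 passed, higher in CDE by 0.38 ± 0.14, where 6.44% of all genes passed. Arrays did not overlap for 4 collagens higher in CDE (Col4a6, Col9a3, Col10a1 and Col6a5), against 11.5% of all genes, and for 2 lower, against 10.5%.

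The DDC diet also gave no collagen call. None of 44 passed in DDC minus UTR, where 37 genes did (0.16%, of which 0.0949% higher and 0.0647% lower), and the lowest adjusted p was 0.369 in limma. Leaving out 1 array gave 0 genes (without DDC replicate 2) to 103 genes (without UTR replicate 1), with no collagen among them. The differences ran from -0.14 to 0.42 with a median of 0.06, beside 0.01 over all genes, and 34 of 44 were positive, beside 52.8% of all genes. At an unadjusted p of 0.05 there were 2, Col4a6 (0.32 ± 0.12) and Col6a5 (0.28 ± 0.10), the second of them under background in every group, against 10.4% of all genes. Col4a1 had the largest difference, 0.42 ± 0.24 (adjusted p = 0.603), with overlapping arrays, and Col4a2 followed with 0.33 ± 0.16 (adjusted p = 0.531), its 3 DDC arrays above both UTR arrays. Arrays did not overlap for 10 collagens higher in DDC, against 12.7% of all genes, and for 1 lower, Col10a1, against 11.8%.

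Set against each other, the diets gave no collagen call either. None of 44 passed in DDC minus CDE, where 269 genes did (1.16%), 97 higher (0.418%) and 172 lower (0.742%); leaving out 1 array gave 16 genes (without CDE replicate 3) to 211, with no collagen. At an unadjusted p of 0.05 there were 5, against 15.3% of all genes: Col4a2, Col2a1 and Col17a1 higher in DDC, and Col9a3 and Col10a1 lower. Col4a1 differed by 0.46 ± 0.22 (adjusted p = 0.363 in limma), Col4a2 by 0.42 ± 0.15 (0.226), Col9a3 by -0.33 ± 0.13 (0.27) and Col10a1, the hypertrophic cartilage collagen, by -0.33 ± 0.09 (0.133). Col10a1 was at 4.97, 5.04 and 5.03 in DDC, against 5.45, 5.26 and 5.30 in CDE; these do not overlap, but all lie near background, whose group means were 5.32 and 5.29. The median over the family was 0.10, beside 0.01 over all genes, with 33 of 44 positive, beside 53.0% of all genes. Arrays did not overlap for 7 collagens higher in DDC (9.64% of all genes) and 2 lower (10.6%). These diet comparisons share arrays and are not independent of each other.

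Some genes for proteins that make, bind and remove collagen passed between the fractions, and their counts stand beside the 10.4% of all genes higher and 8.46% lower in this comparison. Among 18 measured genes of procollagen modification and folding, 4 were higher and 2 lower in UTR than in YFP-, and 12 were not called. Mia2 helps load large cargo such as procollagen at the exit sites of the endoplasmic reticulum. Its UTR mean was at least 12.8-fold above its YFP- mean (fitted difference 4.31 ± 0.39, adjusted p = 0.000166 in limma). YFP- replicate 1 alone, at 5.54, lay above the background level of its array. Plod2, a lysyl hydroxylase of collagen ends, was higher by 1.82 ± 0.50 (adjusted p = 0.0328), and P3h4, part of an endoplasmic reticulum complex that modifies procollagen, by 1.82 ± 0.33 (adjusted p = 0.00487). P4ha1, a catalytic subunit of the prolyl 4-hydroxylase that stabilises the helix, fell by 1.87 ± 0.44 (adjusted p = 0.0165).

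Of 13 measured genes of procollagen cleavage and cross-linking, 2 were higher and 1 lower in UTR, a share near the 18.9% of all genes called. Bmp1 is the protease that removes the procollagen end piece. Its UTR mean was at least 4.56-fold above its YFP- mean (fitted difference 2.19 ± 0.34, adjusted p = 0.0021 in limma). YFP- replicate 1 alone, at 6.01, lay above the background level of its array. Of the lysyl oxidase family, whose members cross-link collagen, Loxl4 was higher by 0.66 ± 0.11 (adjusted p = 0.00366) and Loxl2 at least 1.42-fold lower (adjusted p = 0.0097).

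Of 10 receptors and uptake genes 2 were higher, 2 lower and the others not called. Ddr1, a collagen-activated receptor kinase of epithelia, exceeded YFP- by 3.39 ± 0.63 (adjusted p = 0.00538 in limma) and Itga2, the alpha subunit of an integrin that binds type I collagen, by 1.66 ± 0.39 (adjusted p = 0.017). Lair1, the inhibitory collagen receptor of leukocytes, was at least 17.8-fold lower in UTR (adjusted p = 0.0003), and Itga1, the alpha subunit of an integrin that binds type IV collagen, fell by 1.94 ± 0.40 (adjusted p = 0.00819). Itga2 read 9.48, 9.43 and 9.36 in DDC, 8.58, 8.95 and 8.86 in CDE, 8.43 and 7.27 in UTR, and 6.04, 6.91 and 5.61 in YFP-; its 4 groups did not overlap, yet neither diet passed against UTR (adjusted p = 0.103 for DDC and 0.684 for CDE).

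Of 6 collagen-degrading enzymes only Mmp13, an interstitial collagenase, passed, at least 1.83-fold lower in UTR (adjusted p = 0.000182 in limma). Of 10 matrix partners 2 were higher and 2 lower. Agrn, the basement membrane proteoglycan agrin, exceeded YFP- by 3.64 ± 0.60 (adjusted p = 0.00295) and Fn1, fibronectin, by 2.31 ± 0.41 (adjusted p = 0.00447). Dcn, the fibril-coating proteoglycan decorin, fell by 3.98 ± 0.73 (adjusted p = 0.00487) and Nid1, which joins laminin to type IV collagen, by 2.53 ± 0.48 (adjusted p = 0.00603). With the 5 UTR and YFP- arrays alone, Mia2, Lair1 and Mmp13 still passed, and the other genes named in these lists did not (adjusted p 0.0642 to 0.195 in limma). Without UTR replicate 1 the calls of P4ha1, Plod2 and Itga2 were lost, without UTR replicate 2 those of P4ha1, Plod2, Loxl2, Itga1 and Nid1, and Plod2 also missed without several other arrays.

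Among YFP+ cells, 3 genes of these lists passed in a comparison with DDC: P3h2, Nid1 and Agrn. P3h2, a prolyl 3-hydroxylase that acts on type IV collagen, was at 5.65, 5.57 and 5.97 in DDC, 7.56, 7.03 and 7.41 in CDE, 7.14 and 7.19 in UTR, and 8.10, 5.71 and 5.30 in YFP-. The 3 DDC arrays lay more than 1 log2 unit below every CDE and UTR array. P3h2 fell by 1.43 ± 0.18 in DDC against UTR (0.37-fold, adjusted p = 0.0308 in limma) and by 1.60 ± 0.16 against CDE (0.33-fold, adjusted p = 0.0103), while CDE minus UTR was 0.17 ± 0.18 (adjusted p = 0.955).

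Nid1 was at 6.73, 7.00 and 7.00 in DDC, 6.32, 6.37 and 6.34 in CDE, 5.91 and 5.63 in UTR, and 9.55, 7.82 and 7.53 in YFP-, with no overlap between any groups. It was higher in DDC than in UTR by 1.14 ± 0.13 (adjusted p = 0.0308 in limma), while DDC minus CDE was 0.57 ± 0.11 (adjusted p = 0.0642) and CDE minus UTR 0.57 ± 0.13 (adjusted p = 0.496). Agrn was at 10.46, 10.61 and 10.57 in DDC, 9.97, 9.91 and 10.05 in CDE, 10.08 and 10.29 in UTR, and 8.15, 5.78 and 5.71 in YFP-. The DDC arrays lay above all others, and DDC exceeded CDE by 0.57 ± 0.10 (adjusted p = 0.0386), with 0.36 ± 0.11 over UTR (adjusted p = 0.285).

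Of the 5 lists, with 57 measured genes, 2 genes passed in DDC minus UTR (0.16% of all genes), 2 in DDC minus CDE (1.16%) and none in CDE minus UTR (0.0%). These calls lie near the threshold: with all 11 arrays in the fit none passed (adjusted p 0.54 to 1.0 in limma), and leaving out each of the 8 YFP+ arrays in turn lost the DDC minus UTR call of P3h2 in 7 cases and of Nid1 in 6 (adjusted p up to 0.212 and 0.184, each without UTR replicate 2). In DDC minus CDE the same omissions lost the call of P3h2 in 1 case (0.0584, without CDE replicate 3) and of Agrn in 6 (up to 0.139, without CDE replicate 1). Beside them, the portal fibroblast list had 1 of 10 genes higher in DDC than in CDE, Fbln2, and the hepatocyte list 1 of 6 lower, Alb; no marker gene of the 8 lists passed in DDC minus UTR or CDE minus UTR.

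**Figure D5:**
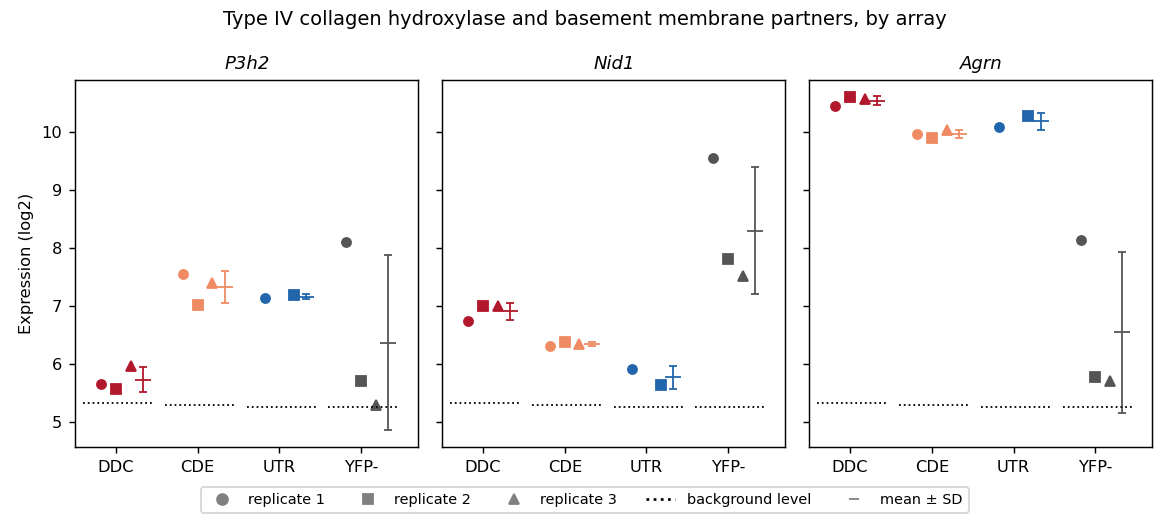
Log2 expression (vertical axis) of P3h2, Nid1 and Agrn on each array, by group, with symbols, bars and dotted lines for replicate number, mean ± SD and background level. The 3 DDC arrays lie below the CDE and UTR arrays in P3h2 (5.57 to 5.97) and above them in Nid1 and Agrn.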

How the data were processed

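The authors deposited log2 expression values per gene number for 11 arrays, per the labels from Affymetrix MoGene 2.0 ST arrays hybridised with biotin-labelled material; how they corrected background, normalized and summarised probes was not stated in the sources at hand. Base 2 was inferred from the range of the values (2.55 to 13.57). Of 25206 features, 23185 had 1 symbol and were tested.

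The test was limma 3.58.1 (R 4.3.3), with lmFit on group means and eBayes without trend. UTR minus YFP- came from all 11 arrays (7 residual degrees of freedom), and the diet comparisons from the 8 YFP+ arrays (5), because the YFP- arrays spread more. Tests were two-sided, adjusted over all genes by Benjamini-Hochberg, at 0.05, and the number of arrays limits precision.

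The members, gene lists and fits were chosen with earlier results of these data known. Named were collagens called in any comparison or above background with group means spanning 1 log2 unit (8 collagens), and up to 4 called genes per list without overlapping arrays. Other collagens described gene by gene were chosen after their values were seen. A gene whose low group had a mean at or below background is given as a bound against background. This bound compares group means, and a single array of the low group can lie above background. Promoter windows are RefSeq's, GRCm38.p6. The fits were tested on simulated data. Alternatives covered arrays in the fit, weights, normalization, filter, trend, threshold, replicate block and leaving out arrays. Some genes of the lists are not reported here.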

Additional observations from a re-analysis of the deposited data

Results flagged for a closer look

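The test of DDC minus CDE asks whether the effects of the diets, each taken against the same UTR arrays, differ. No collagen passed it. Among the genes of the collagen-biology and marker lists 4 did, by limma over all genes. P3h2, the prolyl 3-hydroxylase of type IV collagen, differed by -1.60 (adjusted p = 0.0103), all 3 DDC arrays lying below all 3 CDE arrays. Agrn, the basement membrane proteoglycan, differed by 0.57 (adjusted p = 0.0386), all 3 DDC arrays above all 3 CDE arrays. Fbln2, an elastic fibre and basement membrane protein of the portal fibroblast list, differed by 1.04 (adjusted p = 0.0403), with 8.11, 8.21 and 7.81 in DDC, against 7.05, 6.82 and 7.12 in CDE. Alb, serum albumin of the hepatocyte list, differed by -0.73 (adjusted p = 0.0162), with 11.85, 11.70 and 11.86 in DDC, against 12.48, 12.58 and 12.54 in CDE. The calls of Fbln2 and Alb were lost with all 11 arrays in the fit (adjusted p = 0.696 and 0.712 in limma). They were also lost with the replicate block (0.0823 and 0.060). Leaving out 1 array at a time lost the Fbln2 call in 6 of 8 cases and the Alb call in 4 of 8. No group had the 4 arrays needed to test for an outlying array.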

How the results depend on the processing

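Groups of 2 or 3 arrays, an unstated normalization and values near background limit these results. In UTR minus YFP- the count of 5 collagens became 3 with array weights (Col18a1, Col4a5 and Col4a6), 1 with the UTR and YFP- arrays alone, and 2 when at least 1 log2 unit was also required; leaving out 1 array at a time gave 4 to 7. The diet comparisons gave 0 collagens in every alternative run. Over all genes, UTR minus YFP- gave 4373 calls and 931 with its own 5 arrays; DDC minus UTR gave 37, against 0 with 11 arrays; DDC minus CDE gave 269, against 1 with 11 arrays. Leaving out 1 array gave 2306 to 5817 genes in UTR minus YFP-. Quantile normalization moved the DDC minus CDE split to 130 higher and 141 lower, beside 97 and 172 as deposited.

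Deviations of same-numbered arrays from their group means correlated at -0.07 to 0.13 among YFP+ groups, and at 0.015 and 0.078 between UTR and YFP-. Differently numbered arrays of YFP+ groups gave -0.15 to 0.15. With 2 or 3 arrays in a group this check cannot show whether replicate numbers pair the arrays. With the replicate block, 6 collagens passed in UTR minus YFP- (Col13a1 added, difference -0.94, adjusted p = 0.0351 in limma), and 0 in each diet comparison; over all genes it gave 0 in DDC minus UTR and 61 in DDC minus CDE. The DDC minus UTR calls of P3h2 (adjusted p = 0.101) and Nid1 (0.115) and the DDC minus CDE call of Agrn (0.0879) were lost with it.

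Some signs turned. Col18a1 in DDC minus UTR (0.01) became -0.020 with the replicate block and -0.018 with median centring. Leaving out 1 array at a time, it ran from -0.17 (without DDC replicate 2) to 0.14, and was -0.12 without UTR replicate 2. In UTR minus YFP- the same omissions gave -0.62 to 0.35 for Col5a2, -0.47 to 0.67 for Col6a1, -0.75 to 0.12 for Col1a1, -0.48 to 0.43 for Col4a1 and -0.74 to 0.015 for Col4a2, the highest value each time without YFP- replicate 1; Col4a1 was also 0.13 without UTR replicate 2. The cause was not tested.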
